A study of Mus musculus with 9 samples.

Results

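Mitochondrial fatty acid oxidation was followed through 10 genes taken by name from a table of 49315 gene IDs, with their level given in all 9 libraries as CPM, the count of a gene per 1000000 counts of its library. They encode the carnitine shuttle (Cpt1a, Cpt1c and Cpt2), the acyl-CoA dehydrogenases (Acadvl, Acadl and Acadm), the trifunctional protein and its companion thiolase (Hadha, Hadhb and Acaa2) and the enzyme that hands the electrons on (Etfdh). All 10 were found under 1 ID each in the GENCODE M21 annotation of the mouse genome GRCm38, and all 10 passed the filter on low counts in each comparison.

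The study asked what happens to glioblastoma cells that take up mitochondria from astrocytes. SB28 is a mouse glioblastoma cell line of C57BL6 origin that carries green fluorescent protein, and the astrocytes were primary neonatal cells of mito::mKate2 C57BL6 mice, in which mKate2, a red fluorescent protein, marks the mitochondria. Both were kept together without treatment for 2 days, at equal numbers, in a medium that the labels give as DMEM F12 with 2% FBS, 5% N2 supplement and 20 ng/ml of EGF and FGF, whereas the study's methods give other percentages of FBS and N2. Sorting then gave 3 libraries each of astrocytes, of SB28 cells without mKate2 signal (mKate2-negative) and of SB28 cells with it (mKate2-positive), so that mKate2-negative cells had also grown beside astrocytes and SB28 cells grown alone are not part of these data. All 9 libraries came from 3 co-cultures, so the groups share cultures, but the sources do not say which library belongs to which. SB28 is a single cell line, so its libraries sample cultures and not tumors. The deposited description stains the astrocytes with the dye CellTrace Violet but writes the sort gates of the SB28 groups with that dye and without GFP, and libraries were therefore grouped by their titles.

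Long-chain fatty acids cross into mitochondria as carnitine esters. Carnitine palmitoyltransferase 1 on the outer membrane makes the ester, and this step is held back by malonyl-CoA, the building block of fatty acid synthesis. Carnitine palmitoyltransferase 2 on the inner membrane turns the ester back into acyl-CoA, which is then shortened in repeated rounds of dehydrogenation, hydration, renewed dehydrogenation and thiolysis, and the electrons of the acyl-CoA dehydrogenases reach ubiquinone through electron transfer flavoprotein and its dehydrogenase. In the brain, this pathway is known mainly from astrocytes.

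Total counts ranged from 24454561 to 39287841 per library. Replicates of a group were not repeats of 1 library, since counts of the closest pair within a group, mKate2-positive replicates 1 and 3, still gave a chi-square of 17.3 per degree of freedom. One library of SB28 cells stood apart. mKate2-positive replicate 2 correlated across 13450 genes with the other SB28 libraries at r of 0.985 to 0.988 (Pearson, log2(CPM + 1)), whereas the mKate2-negative libraries reached 0.995 to 0.996 among themselves. Its share of counts from 79 cytosolic ribosomal protein genes was 6.30%, compared with 3.30% to 3.83% in the other 5 SB28 libraries, and its share from the 13 mitochondrially encoded mRNAs was 0.552%, compared with 0.839% to 1.51%. Among the astrocyte libraries, replicate 3 was the most distant, at r of 0.953 and 0.967 to the others, which reached 0.980 with each other.

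The labelled cell types were compared with marker genes. Of 15 astrocyte markers, 10 were at least 10 times higher in astrocyte than in SB28 libraries, among them Slc1a3, the glutamate transporter GLAST, at 195 ± 35.2 CPM (SD, n = 3), whereas Gja1 was at 198 ± 26.3 CPM in astrocytes and 265 ± 21.2 CPM in mKate2-negative cells. Their summed level was 1475, 1449 and 2418 CPM in astrocyte replicates 1 to 3 and 509 to 554 CPM in SB28 libraries, where Gja1 was the most abundant. In astrocyte replicate 3, Aldoc stood at 362 CPM and Aqp4 at 59.7 CPM, against at most 55.6 and 6.82 CPM in the other astrocyte libraries. Markers of other cells were also present in the astrocyte libraries. The 10 oligodendrocyte lineage markers summed to 983, 542 and 612 CPM, led by Olig1 at 541, 241 and 304 CPM, with 39.1 to 48.6 CPM in SB28 libraries, although Sox10 was at or near 0 in every group. The 6 fibroblast markers summed to 1423, 1512 and 1096 CPM in astrocytes and 591 to 924 CPM in SB28 libraries, led everywhere by Col1a2. Of 10 microglial markers, 8 stayed below 1 CPM in the mean of every group, Cx3cr1 at or near 0 among them, and nearly all of their sum of 29.1 to 61.3 CPM was Tmem119. The 8 neuronal markers summed to 66.5 to 111 CPM in astrocytes and 48.9 to 60.8 CPM in SB28 libraries, with Map2, Stmn2 or Tubb3 the most abundant and Rbfox3 at 0. The 5 endothelial markers summed to 7.40, 13.9 and 199 CPM in astrocyte replicates 1 to 3 and 48.5 to 61.1 CPM in SB28 libraries, most of it Flt1, with Cldn5 at 0 in astrocytes. These markers move with the comparisons of SB28 cells and astrocytes below, and their part in them was not tested.

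Levels of different genes can only be compared per length of transcript. Per kilobase of annotated exon, Acadl, the long-chain acyl-CoA dehydrogenase, was the highest of the 10 genes in each group, at 54.9 ± 3.57 CPM per kilobase in astrocytes (SD, n = 3), 43.8 ± 2.02 in mKate2-negative and 43.9 ± 3.35 in mKate2-positive SB28 cells. In astrocytes, Acadvl at 48.7 ± 7.90 and Acaa2 at 47.7 ± 10.4 CPM per kilobase followed. Their ranges overlapped with each other and with that of Acadl, which was the highest there by mean only. Cpt1c came next in astrocytes at 30.4 ± 3.01 CPM per kilobase, above Cpt1a at 22.3 ± 0.766 and without overlap. In both SB28 groups, Cpt1c was the lowest of the 10, at 2.47 ± 0.282 and 2.06 ± 0.38 CPM per kilobase, clear of Etfdh above it at 5.78 ± 0.0662 and 5.60 ± 0.292. Cpt2, Hadha and Hadhb lay close together in SB28 cells, between 15.0 and 16.8 CPM per kilobase, and neighbours among them overlapped. The order depends on the length used, because the annotated exons of some genes, Hadhb and Etfdh above all, add up to far more than their longest protein-coding transcript. Per kilobase of the longest protein-coding transcript instead, a length chosen after seeing the data, Cpt1c led in astrocytes at 61.0 ± 6.04 CPM per kilobase and Hadhb led in SB28 cells at 51.2 ± 2.83 and 48.2 ± 5.50, while Cpt1c remained the lowest in SB28 cells.

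Sequence upstream of RefSeq starts was read for the genes whose levels differed together between the cell types and for the pair that shares a start region. The RefSeq promoter table of GRCm38.p6 holds 250 bases before and 50 after the start of 32851 genes, 9 of the 10 genes among them. The exception is Acaa2, which was also lower in SB28 cells than in astrocytes, so its upstream sequence was not read. AGGTCA, the core letters read by many nuclear receptors, was searched on both strands and lay in 4 of these 9 entries (Acadm, Acadvl, Cpt1a and Cpt1c), against 16.3% of all promoters. The longer AAGGTCA, which contains AGGTCA and is the letters of the estrogen-related receptors, lay in 1 of the 9, Acadm, and in 4.72% of all promoters. GGGCGG, the GC box read by Sp1, lay in 7 of the 9 and in 35.7% of all promoters. The stretches below are the parts of the entries before the start that hold no annotated exon, 5′ to 3′ on the strand of the gene, with AGGTCA or its reverse complement in capitals for Cpt1a (chr19:3323051-3323284, plus strand), Cpt1c (chr7:44974852-44975101, minus strand) and Acadvl (chr11:70015429-70015678, minus strand). For Hadha and Hadhb, which are transcribed away from each other, the 85 bases between the annotated genes are shown on the strand of Hadhb (chr5:30155163-30155247, plus strand), with GGGCGG in capitals.
Cpt1a: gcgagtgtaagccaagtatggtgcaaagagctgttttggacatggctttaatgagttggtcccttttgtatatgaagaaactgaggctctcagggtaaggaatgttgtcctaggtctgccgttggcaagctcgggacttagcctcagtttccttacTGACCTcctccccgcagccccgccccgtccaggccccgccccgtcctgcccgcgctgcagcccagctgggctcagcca
Cpt1c: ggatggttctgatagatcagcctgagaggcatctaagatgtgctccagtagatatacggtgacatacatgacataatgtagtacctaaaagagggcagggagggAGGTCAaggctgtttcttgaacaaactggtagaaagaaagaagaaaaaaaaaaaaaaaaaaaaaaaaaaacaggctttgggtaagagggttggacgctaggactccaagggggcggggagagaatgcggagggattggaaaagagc
Acadvl: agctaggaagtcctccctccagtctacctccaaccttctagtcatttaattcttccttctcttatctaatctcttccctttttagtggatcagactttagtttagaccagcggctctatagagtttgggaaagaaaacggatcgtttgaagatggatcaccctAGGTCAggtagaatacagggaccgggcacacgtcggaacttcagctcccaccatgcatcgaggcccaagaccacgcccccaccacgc
Hadha-Hadhb: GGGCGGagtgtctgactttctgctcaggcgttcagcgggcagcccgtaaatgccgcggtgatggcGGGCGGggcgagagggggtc
The match in Cpt1a lies 94 to 89 bases before its start and on the opposite strand, that in Cpt1c 146 to 141 and that in Acadvl 87 to 82 bases before the start. The starts are those of RefSeq, and the stretch of Cpt1a lies inside the gene as GENCODE M21 places it (chr19:3322334-3385733). A match says only that the letters are there.

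Of the 10 genes, Cpt1c had the largest difference between SB28 cells and astrocytes. Cpt1c (ENSMUSG00000007783, chr7:44959372-44974851, minus strand) encodes the brain form of the enzyme, which sits mainly in the endoplasmic reticulum and has little catalytic activity. It stood at 180, 151 and 180 CPM in astrocyte replicates 1 to 3, at 12.3, 13.8 and 15.4 CPM in mKate2-negative cells and at 14.0, 10.5 and 10.1 CPM in mKate2-positive cells. Every SB28 library lay far below every astrocyte library, and the SB28 groups overlapped. The level was 12.2-fold lower in mKate2-negative cells (log2 fold change -3.61, SE 0.142, adjusted p = 4.48e-06, edgeR's quasi-likelihood test) and 14.1-fold lower in mKate2-positive cells (log2 fold change -3.81, SE 0.172, adjusted p = 6.88e-06) than in astrocytes. Its exons share 366 bases with the antisense gene 6530437J22Rik, and reads there cannot be told apart without strand information, which is not given in the sources used here.

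Cpt1a (ENSMUSG00000024900, chr19:3322334-3385733, plus strand) encodes the liver form, the enzyme that malonyl-CoA inhibits and that sets the rate of entry in many tissues. Its level was 165, 177 and 170 CPM in astrocytes, 78.7, 84.2 and 75.6 CPM in mKate2-negative cells and 85.4, 68.3 and 70.4 CPM in mKate2-positive cells. Again no SB28 library reached an astrocyte library. Cpt1a was 2.12-fold lower in mKate2-negative (log2 fold change -1.09, SE 0.0946, adjusted p = 5.78e-05) and 2.17-fold lower in mKate2-positive cells (log2 fold change -1.12, SE 0.118, adjusted p = 0.000187) than in astrocytes. In bulk libraries such as these, fewer cells with the RNA and less RNA per cell cannot be told apart. Within a library, Cpt1a and Cpt1c had nearly equal counts in astrocytes, with 0.918 to 1.17 Cpt1a counts for each Cpt1c count, and 4.90 to 6.95 in the 6 SB28 libraries.

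Cpt2 (ENSMUSG00000028607, chr4:107903981-107923610, minus strand) encodes the enzyme of the inner membrane and did not pass in either comparison. Its level was 53.3, 39.2 and 40.6 CPM in astrocytes, 39.0, 41.6 and 39.4 CPM in mKate2-negative and 40.9, 37.0 and 42.0 CPM in mKate2-positive cells. Only astrocyte replicate 1 lay above the SB28 range. The log2 fold change from astrocytes was -0.14 in mKate2-negative cells (95% interval -0.50 to 0.22, adjusted p = 0.464) and -0.080 in mKate2-positive cells (-0.45 to 0.29, adjusted p = 0.682), and without astrocyte replicate 1 both turned positive, at 0.027 and 0.076.

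**Figure D1:**
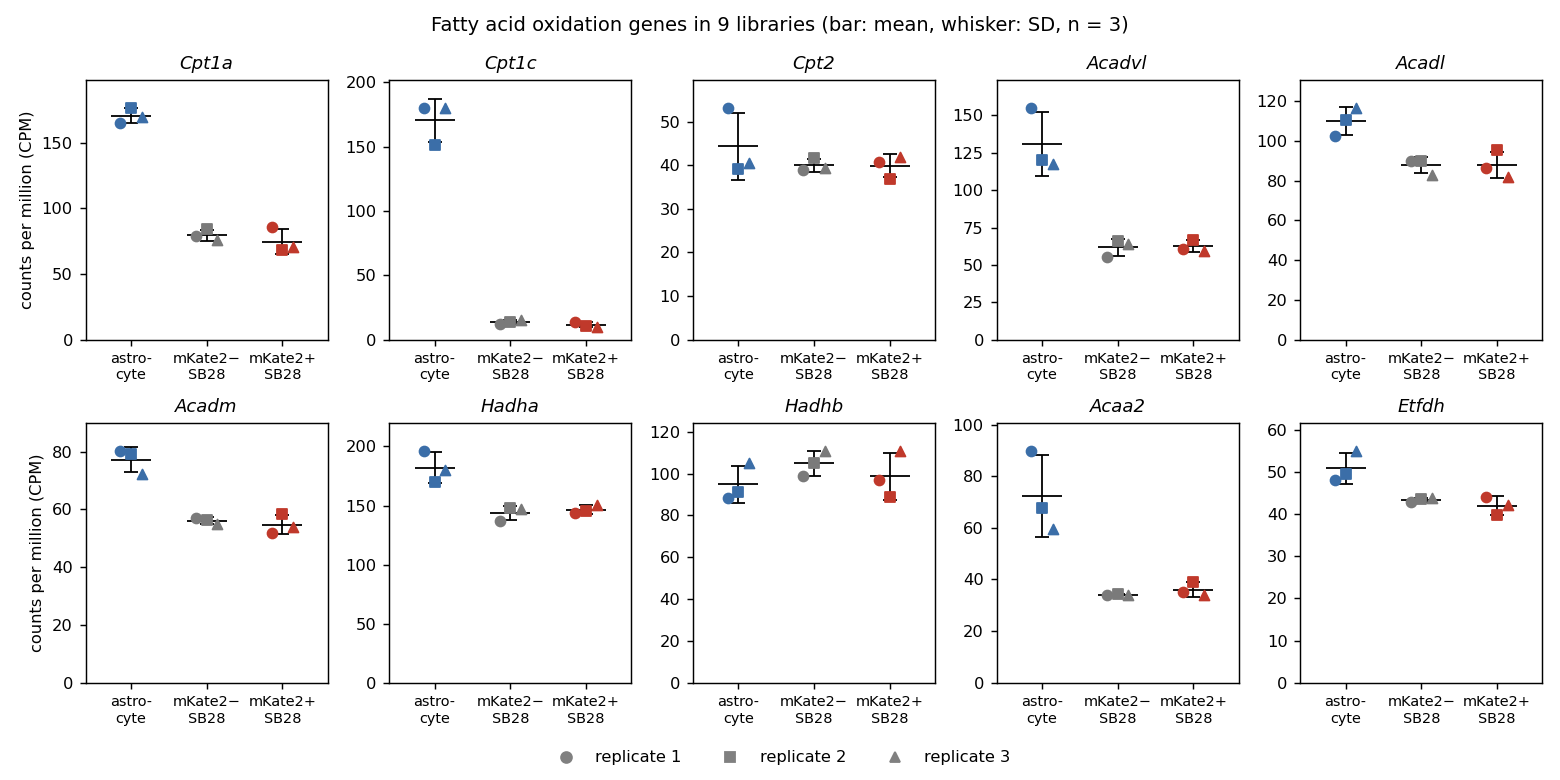
Each panel shows 1 gene, with its level in CPM on the vertical axis from 0, 1 point per library shaped by replicate number, and the mean and SD of 3 libraries as bar and whisker. Cpt1c fell from 151 to 180 CPM in astrocytes to at most 15.4 CPM in SB28 cells, whereas Cpt2, Hadhb and Etfdh lay near the same level in each group.

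The acyl-CoA dehydrogenases carry out the opening step of each round and differ in the chain length they prefer. Acadvl (ENSMUSG00000018574, chr11:70010183-70015411, minus strand) encodes the very long-chain enzyme of the inner membrane. It stood at 155, 120 and 117 CPM in astrocytes, at 55.3, 65.9 and 63.9 CPM in mKate2-negative cells and at 60.9, 67.0 and 59.3 CPM in mKate2-positive cells, with no overlap between astrocytes and SB28 cells. The level was 2.10-fold lower in mKate2-negative (log2 fold change -1.07, SE 0.152, adjusted p = 0.000572) and 1.99-fold lower in mKate2-positive cells (log2 fold change -0.99, SE 0.159, adjusted p = 0.00129). Acadvl shares 1151 exonic bases with Dvl2 on the opposite strand. How reads there were assigned is not given in the sources used here, so its counts and its level per kilobase are uncertain.

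Acadm (ENSMUSG00000062908, chr3:153922357-153944632, minus strand) encodes the medium-chain enzyme and Acadl (ENSMUSG00000026003, chr1:66830839-66863277, minus strand) the long-chain enzyme. Acadm was at 80.3, 79.2 and 72.3 CPM in astrocytes, 57.0, 56.5 and 54.8 CPM in mKate2-negative and 51.8, 58.4 and 54.0 CPM in mKate2-positive cells. For Acadl the values were 103, 111 and 117 CPM in astrocytes, 90.2, 90.0 and 83.1 CPM in mKate2-negative and 86.5, 95.2 and 82.0 CPM in mKate2-positive cells. Both genes had their lowest astrocyte library above their highest SB28 library, by a small margin for Acadl. In mKate2-negative cells, Acadm was lower by 1.36-fold (log2 fold change -0.45, SE 0.0988, adjusted p = 0.00514) and Acadl by 1.24-fold (-0.31, SE 0.0943, adjusted p = 0.0212). In mKate2-positive cells, Acadm was lower by 1.34-fold (-0.42, SE 0.124, adjusted p = 0.0204), and Acadl had a log2 fold change of -0.24 that did not pass (95% interval -0.53 to 0.044, adjusted p = 0.123). The call on Acadm in mKate2-positive cells ended without the filter on low counts (adjusted p = 0.0821) and without astrocyte replicate 2 (0.0594), mKate2-positive replicate 1 (0.0920) or mKate2-positive replicate 3 (0.0834). A block on replicate number, given in the closing section, ended this call as well. Acadl passed in mKate2-positive cells without their replicate 2 (log2 fold change -0.34, adjusted p = 0.0403), without that library and astrocyte replicate 3 together (0.0460), and with upper-quartile normalization (0.0450).

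The trifunctional protein carries out the remaining steps of each round on long chains. Hadha (ENSMUSG00000025745, chr5:30118304-30155162, minus strand) encodes its alpha subunit, with the hydratase and the hydroxyacyl-CoA dehydrogenase, and Hadhb (ENSMUSG00000059447, chr5:30155248-30184593, plus strand) the beta subunit, with the thiolase. Hadha was at 196, 170 and 180 CPM in astrocytes, 137, 148 and 147 CPM in mKate2-negative and 143, 145 and 151 CPM in mKate2-positive cells. Hadhb was at 88.2, 91.3 and 105 CPM in astrocytes, 99.0, 105 and 111 CPM in mKate2-negative and 96.8, 88.7 and 111 CPM in mKate2-positive cells. Every SB28 library was below every astrocyte library for Hadha, and the groups overlapped for Hadhb. Hadha was 1.25-fold lower in mKate2-negative cells (log2 fold change -0.33, SE 0.107, adjusted p = 0.0287), and its log2 fold change of -0.24 in mKate2-positive cells did not pass (95% interval -0.51 to 0.031, adjusted p = 0.109), although it did with upper-quartile normalization (0.0410) and with at least 10 counts in every library (0.0439). Hadhb had log2 fold changes of 0.16 (-0.078 to 0.40, adjusted p = 0.206) and 0.13 (-0.15 to 0.42, adjusted p = 0.376). Of the calls in mKate2-negative cells, those on Hadha and Acadl ended without the filter on low counts (adjusted p = 0.136 and 0.139) and without any 1 of the 3 mKate2-negative libraries (0.0677 to 0.114 and 0.0533 to 0.108), and with a trend over exonic length removed (0.0903 and 0.0693). Both calls also ended with a block on replicate number, as given in the closing section.

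The ratio of Hadha to Hadhb counts within a library, a measure chosen after the values were seen and not tested, does not depend on library size. It was 2.23, 1.86 and 1.71 in astrocytes, 1.38, 1.41 and 1.33 in mKate2-negative and 1.48, 1.64 and 1.36 in mKate2-positive cells. The lowest astrocyte library stood above the highest SB28 library, which was mKate2-positive replicate 2. Hadha shares 75 exonic bases with Garem2 on the opposite strand, and both genes of the pair start within 272 bases of each other, around the stretch printed above.

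**Figure D2:**
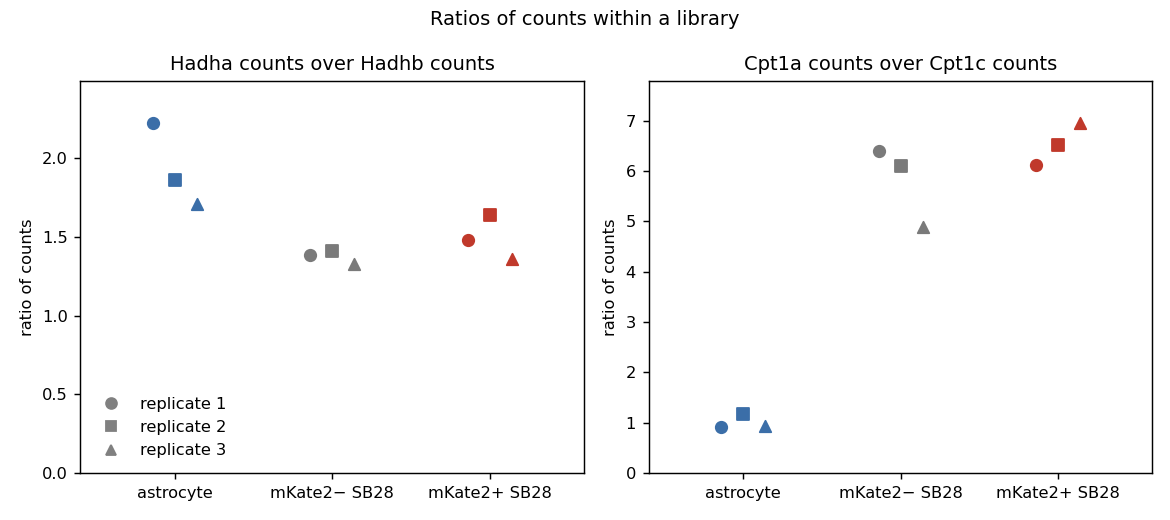
Ratios of raw counts within each library for Hadha over Hadhb and for Cpt1a over Cpt1c, with 1 point per library on axes that start at 0. Hadha over Hadhb spans 1.71 to 2.23 in astrocytes and 1.33 to 1.64 in SB28 cells, and Cpt1a over Cpt1c spans 0.918 to 1.17 and 4.90 to 6.95.

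Acaa2 (ENSMUSG00000036880, chr18:74779197-74806208, plus strand) encodes the matrix thiolase that cleaves shorter chains. Its level was 89.8, 67.6 and 59.5 CPM in astrocytes, 34.1, 34.2 and 34.0 CPM in mKate2-negative and 35.1, 39.2 and 33.9 CPM in mKate2-positive cells. The astrocyte libraries were spread over a wide range but did not reach down to the SB28 libraries. Acaa2 was 2.11-fold lower in mKate2-negative (log2 fold change -1.07, SE 0.172, adjusted p = 0.00105) and 1.90-fold lower in mKate2-positive cells (-0.93, SE 0.189, adjusted p = 0.00402). Etfdh (ENSMUSG00000027809, chr3:79603788-79629500, minus strand), the dehydrogenase that passes the electrons to ubiquinone, was at 48.0, 49.6 and 55.0 CPM in astrocytes, 42.9, 43.5 and 43.8 CPM in mKate2-negative and 44.1, 39.8 and 42.1 CPM in mKate2-positive cells. Its groups did not overlap between astrocytes and SB28 cells, yet the difference did not pass the test in either comparison (log2 fold change -0.21, 95% interval -0.45 to 0.022, adjusted p = 0.0996, and -0.20, -0.47 to 0.066, adjusted p = 0.164). In mKate2-negative cells, Etfdh passed with upper-quartile normalization (adjusted p = 0.0335) and with a minimum of 10 counts in every library (0.0451). Etfdh shares 278 exonic bases with 4930579G24Rik on the opposite strand.

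Counted over the 10 genes, 7 were lower and 0 higher in mKate2-negative cells than in astrocytes at an adjusted p below 0.05, where 33.8% of the 13356 genes tested were lower and 29.3% higher. Of the 7, 4 were lower by more than 2-fold (Cpt1a, Cpt1c, Acadvl and Acaa2), compared with 22.4% of all genes. In mKate2-positive cells, 5 were lower and 0 higher, with 32.1% and 28.0% of 13342 genes, and 2 were lower by more than 2-fold (Cpt1a and Cpt1c), with 22.8% of all genes. These counts beyond 2-fold depended on single libraries, with Acadvl and Acaa2 on either side of the limit. Leaving out 1 library, the log2 fold change of Acadvl ranged from -1.16 to -0.92 in mKate2-negative and from -1.09 to -0.85 in mKate2-positive cells. That of Acaa2 ranged from -1.20 to -0.88 and from -1.08 to -0.74. The median log2 fold change of the 10 genes was -0.39 and -0.33, beside -0.038 and -0.018 for all genes tested. Without astrocyte replicate 3, the counts of lower genes were again 7 and 5, and without that library and mKate2-positive replicate 2 together, an alternative chosen after seeing the data, 6 genes were lower in mKate2-positive cells. The share of all genes whose SB28 and astrocyte libraries do not overlap is not given here, so such separation is not read as particular to these genes. The comparisons share their astrocyte libraries and are given side by side. In sum of all 10 genes, astrocyte libraries held 1104 ± 52.2 CPM (SD, n = 3), mKate2-negative libraries 665 ± 18.7 CPM and mKate2-positive libraries 655 ± 4.69 CPM.

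**Figure D3:**
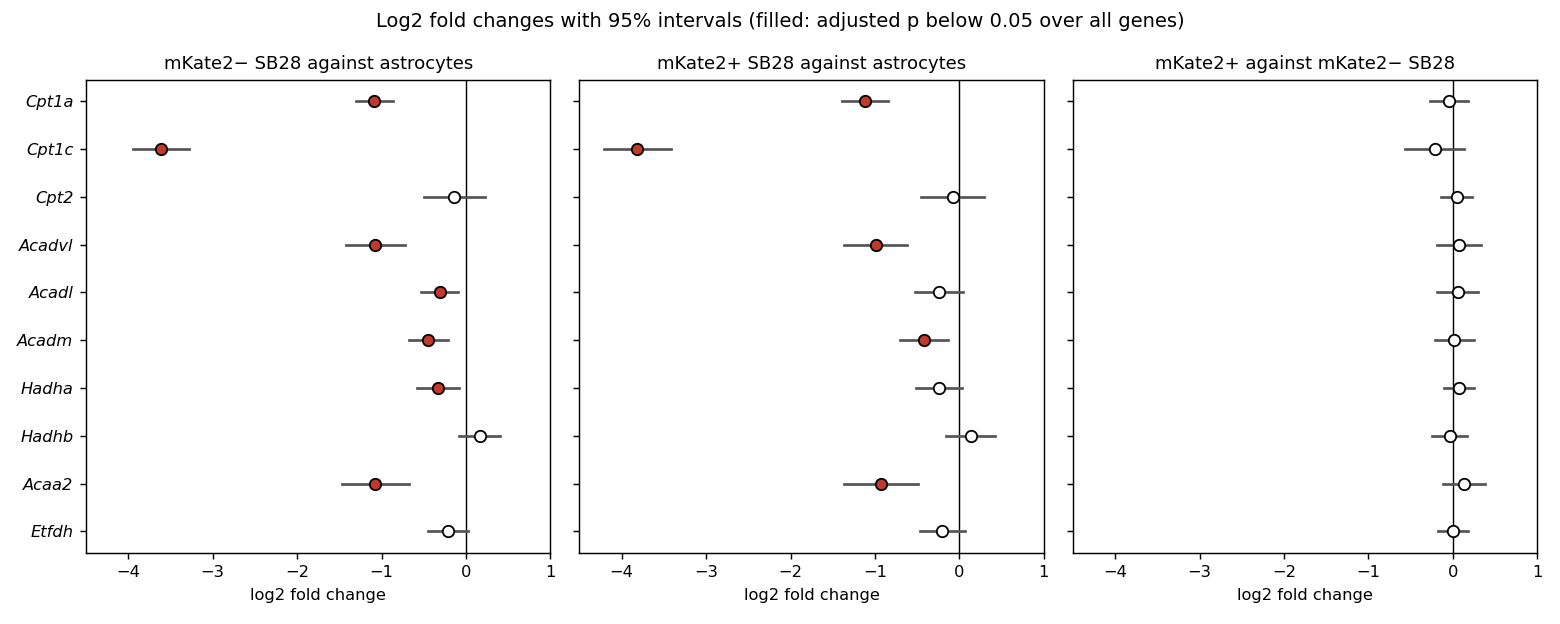
Log2 fold changes (horizontal axis) of the 10 genes in 3 comparisons, with 95% intervals as lines and filled points for an adjusted p below 0.05 over all genes tested. Filled points lie to the left of 0 in both comparisons with astrocytes, 7 and 5 of them, and there is none between mKate2-positive and mKate2-negative cells.

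Between mKate2-positive and mKate2-negative SB28 cells, none of the 10 genes passed, and 0.0% of 11854 genes did so at an adjusted p below 0.05 with edgeR's quasi-likelihood test, the smallest adjusted p being 0.923. At an unadjusted p below 0.05, 0 of the 10 genes and 241 genes in all (2.03%) passed with edgeR, and 0 of the 10 and 317 in all with DESeq2. With edgeR the 241 became 119 without mKate2-negative replicate 2 and 876 without mKate2-positive replicate 1, with 0 of the 10 genes in either case. For 0 of the 10 did the libraries of both groups separate, compared with 8.83% of all genes. Cpt1c had the largest difference of the 10, with a log2 fold change of -0.22 (95% interval -0.56 to 0.13), and Acaa2 the largest in the other direction, with 0.14 (-0.11 to 0.38). Leaving out 1 library, these ranged from -0.35 to -0.13 for Cpt1c and from 0.019 to 0.18 for Acaa2, beside 0.034 to 0.11 for Hadha. For Cpt1a the log2 fold change was -0.042 (-0.27 to 0.18). Expressed as ratios of mKate2-positive to mKate2-negative cells, the 95% intervals of the 10 genes reached down to 0.677 for Cpt1c and up to 1.30 for Acaa2, and they were narrower for others, such as 0.908 to 1.17 for Cpt2 and 0.933 to 1.19 for Hadha.

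mKate2-positive replicate 2, the library that stood apart, was at the edge of the 6 SB28 libraries for most of the genes. It held the highest level for Acadvl, Acadl, Acadm and Acaa2 and the lowest for Cpt1a, Cpt2, Hadhb and Etfdh. Exonic length was 1516 to 3913 bases for the 4 genes that were highest and 2391 to 7642 bases for the 4 that were lowest, and whether length had a part was not tested. Without this library, the log2 fold changes between mKate2-positive and mKate2-negative cells turned negative for Acadvl (-0.035), Acadl (-0.056) and Acadm (-0.082), and none passed. Across all 9 libraries, the log2 levels of the genes correlated with a median r of 0.811 over 45 pairs, 36 of them above 0, in which the difference between cell types takes part. Within the 6 SB28 libraries the median r was -0.11, with 20 of 45 pairs above 0, and the lowest were Hadhb with Acadl and with Acaa2, both at -0.85.

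**Figure D4:**
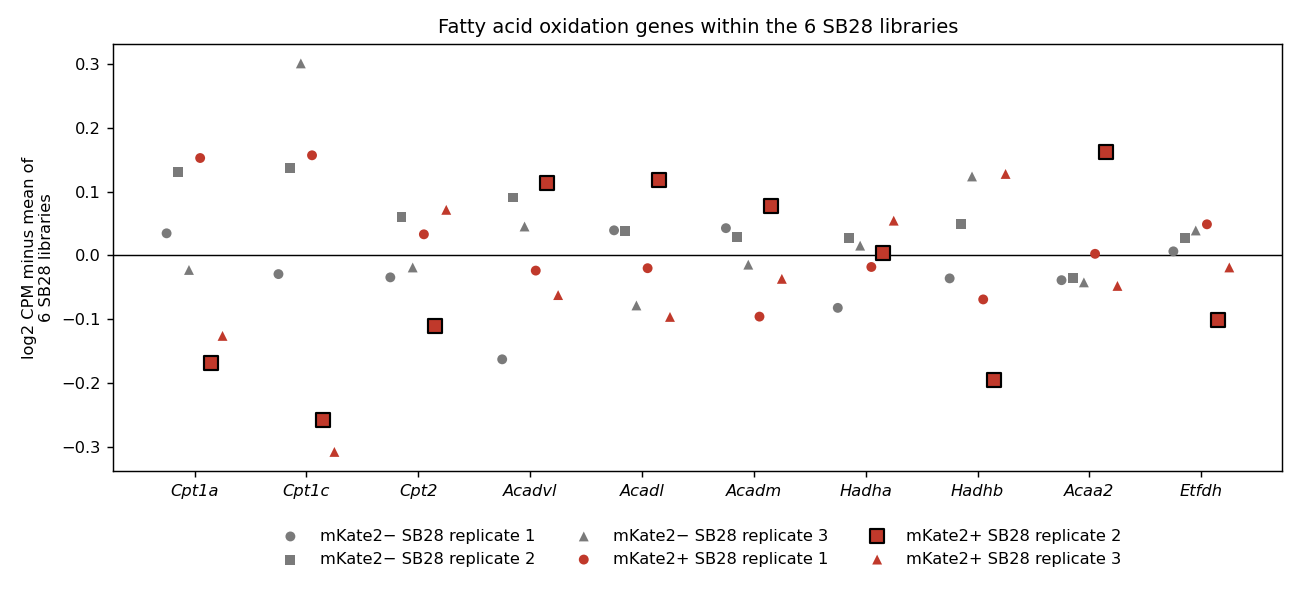
Log2 CPM of each gene minus its mean over the 6 SB28 libraries, with grey points for mKate2-negative and red points for mKate2-positive libraries, and mKate2-positive replicate 2 drawn large with a black edge. That library is the highest for 4 genes and the lowest for 4 others, and the groups overlap for all 10.

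Genes elsewhere in the table followed the 10 genes closely. For each, the gene with the highest r of log2 level over the 9 libraries, among 13450 genes, was Tbc1d2 for Cpt1a (0.997), Cul9 for Cpt1c (0.998), Gm37254 for Cpt2 (0.982), Tmem19 for Acadvl (0.998), Tcea3 for Acadl (0.987), Angpt4 for Acadm (0.993), Zdhhc4 for Hadha (0.991), Smim13 for Hadhb (0.962), Cnpy3 for Acaa2 (0.996) and Limk2 for Etfdh (0.996). With 9 points in 2 cell types such values are common. Cpt1c had 2178 genes above 0.95 and Cpt1a 1886, whereas Cpt2 had 1 and Hadhb 4.

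The surrounding steps of fatty acid metabolism were read from 75 further genes in 10 lists, of which 65 passed the filter in each comparison with astrocytes. Among those named below, Fabp7, Acot1, Ppargc1a and Ucp2 passed only through the astrocyte libraries, where they were high, so that they could only come out lower in SB28 cells. The genes of the Acsl family, which activate fatty acids, were higher in SB28 cells, whereas Slc27a1 and Slc27a4, listed under uptake below, went in opposite directions. All 5 long-chain acyl-CoA synthetases, which attach coenzyme A to fatty acids before they can be burned or built into lipids, rose in both comparisons, beside 29.3% and 28.0% of all genes that were higher, with median log2 fold changes of 1.07 and 1.17. The count was 4 of 5 in both comparisons without astrocyte replicate 2, in mKate2-negative cells with upper-quartile normalization or without mKate2-negative replicate 1 or 2, and in mKate2-positive cells without mKate2-positive replicate 1. Acsl5 stood at 79.7 ± 4.26 CPM in astrocytes, 225 ± 2.63 in mKate2-negative and 230.0 ± 4.73 CPM in mKate2-positive cells (SD, n = 3). Acsl4, which prefers arachidonic acid, stood at 93.3 ± 24.8, 278 ± 22.8 and 254 ± 34.9 CPM. Acsl1 had 15.8 ± 4.02, 32.8 ± 2.21 and 33.8 ± 2.27 CPM.

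Of 4 other genes of the carnitine system, 3 were lower and 0 higher in each comparison, beside 33.8% and 32.1% of all genes that were lower, namely Slc25a20, the carnitine acylcarnitine carrier of the inner membrane, and the acetyl and octanoyl transferases Crat and Crot. Slc25a20 was at 40.3 ± 1.60 CPM in astrocytes, 20.6 ± 0.658 in mKate2-negative and 22.3 ± 1.63 CPM in mKate2-positive cells (log2 fold change -0.95, SE 0.112, adjusted p = 0.000234, and -0.77, SE 0.138, adjusted p = 0.00217). Slc22a5, the carnitine transporter of the cell membrane, named after its values were seen, did not pass (log2 fold change -0.10, 95% interval -0.56 to 0.35, and -0.063, -0.53 to 0.41). The count fell to 2 of 4 in each comparison without astrocyte replicate 2 or 3 or any 1 SB28 library.

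Other mitochondrial beta-oxidation enzymes went both ways, with 2 higher and 7 lower of 15 in mKate2-negative cells and 3 higher and 5 lower in mKate2-positive cells (medians -0.25 and -0.21). Over all genes, 29.3% were higher and 33.8% lower in mKate2-negative cells, and 28.0% and 32.1% in mKate2-positive cells, so that the lower share of the list in mKate2-positive cells was near that of all genes. Acat1, the acetoacetyl-CoA thiolase, rose from 82.9 ± 4.40 CPM in astrocytes to 171 ± 4.76 and 166 ± 1.19 CPM. Acadsb, the dehydrogenase of short branched chains, fell from 114 ± 18.9 to 50.3 ± 5.33 and 47.9 ± 3.62 CPM, and Acad11 from 48.4 ± 16.5 to 11.8 ± 1.90 and 11.2 ± 0.773 CPM. Without mKate2-positive replicate 1 or 3, 3 genes were lower in mKate2-positive cells. The medians of the list were -0.099 in mKate2-negative and -0.067 in mKate2-positive cells without astrocyte replicate 1.

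Peroxisomes shorten very long chains with a set of enzymes of their own, and genes of this list were mostly lower in SB28 cells. Of the 9 genes with at least 10 counts in every library, 9 were lower in mKate2-negative and 8 in mKate2-positive cells. With the usual filter 11 of 11 and 10 of 11 were lower, beside 33.8% and 32.1% of all genes, but Ehhadh and Acaa1b, the latter named after its values were seen, passed that filter only through astrocyte libraries and could only come out lower. Acaa1a, a peroxisomal thiolase, was at 86.9 ± 7.97 CPM in astrocytes and at 37.9 ± 1.91 and 33.9 ± 1.79 CPM in SB28 cells, and Abcd2, a transporter of very long chains, at 14.9 ± 4.0, 1.30 ± 0.167 and 1.66 ± 0.218 CPM. Ehhadh had 1.90 to 3.16 CPM in astrocytes and at most 0.0557 CPM in any SB28 library.

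**Figure D5:**
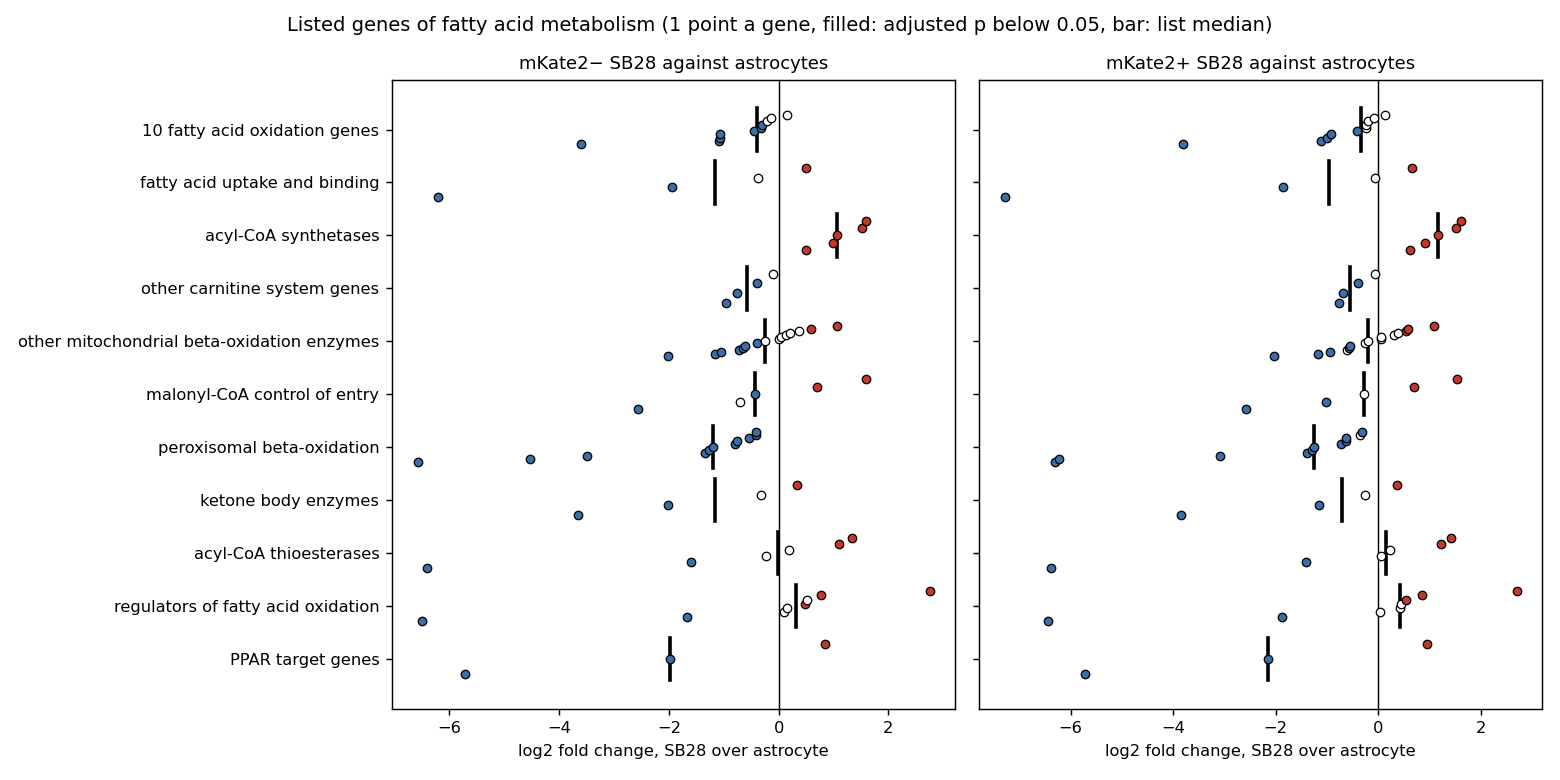
Log2 fold changes (horizontal axis) of SB28 cells over astrocytes for the 10 genes and the 10 lists, with 1 point a gene, filled for an adjusted p below 0.05 (red higher, blue lower), and a bar at the median of each list. Filled points of the acyl-CoA synthetases lie to the right of 0, and those of peroxisomal beta-oxidation to the left.

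Malonyl-CoA, which holds back CPT1, is made by acetyl-CoA carboxylase and removed by malonyl-CoA decarboxylase. Acaca, the main carboxylase of lipid synthesis, stood at 86.2 ± 12.2 CPM in astrocytes, 256 ± 19.6 in mKate2-negative and 237 ± 9.59 CPM in mKate2-positive cells (log2 fold change 1.59, SE 0.126, adjusted p = 3.92e-05, and 1.53, SE 0.130, adjusted p = 7.06e-05). Acacb, the other carboxylase, was at 4.78 ± 1.85, 2.89 ± 0.541 and 2.25 ± 0.453 CPM. Mlycd, the decarboxylase, was at 20.6 ± 2.92, 15.1 ± 0.721 and 16.0 ± 1.35 CPM. Both were named after their values were seen. With edgeR's quasi-likelihood test, Acacb was lower in mKate2-positive cells only (adjusted p = 0.0459) and Mlycd in mKate2-negative cells only (adjusted p = 0.0425). The catalytic subunits of AMP-activated kinase, which switches the carboxylases off, moved in opposite directions. Prkaa1 was at 92.7 ± 18.3 CPM in astrocytes and 149 ± 5.88 and 143 ± 3.58 CPM in SB28 cells, and Prkaa2 at 12.8 ± 5.49 and 2.14 ± 0.528 and 2.04 ± 0.714 CPM. Of the 5 genes, 2 were higher and 2 lower in each comparison, near the shares of all genes (29.3% higher and 33.8% lower in mKate2-negative, 28.0% and 32.1% in mKate2-positive cells), and 1 was lower without astrocyte replicate 1 or any 1 SB28 library in either comparison and without astrocyte replicate 3 in mKate2-positive cells.

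Among 8 regulators tested, 3 were higher and 2 lower in each comparison, shares near the 29.3% higher and 33.8% lower of all genes in mKate2-negative and the 28.0% and 32.1% in mKate2-positive cells. The lower genes were Ncoa1 and Ppargc1a, which could only come out lower, and 1 of 8 was lower with at least 10 counts required in every library. Ppargc1a, the coactivator PGC-1alpha that raises mitochondrial and fatty acid oxidation genes in many tissues, was at 21.3, 18.7 and 23.9 CPM in astrocytes, at 0.111 to 0.335 CPM in mKate2-negative cells and at 0.416, 0 and 0.293 CPM in mKate2-positive cells, where a count of 0 allows up to 0.0764 CPM (3 counts, counting error only). Its relative Ppargc1b, named after its values were seen, was at 1.44 ± 0.752 CPM in astrocytes, 9.66 ± 1.29 in mKate2-negative and 8.96 ± 1.80 CPM in mKate2-positive cells. The coactivator Ncoa1 stood at 41.7 ± 6.02, 12.9 ± 1.25 and 10.7 ± 1.32 CPM, and Ppard, a fatty acid receptor, at 57.3 ± 4.91, 97.1 ± 7.13 and 98.1 ± 11.3 CPM. Of the PPAR targets outside the other lists, 3 were tested, with 1 higher and 2 lower, or 1 and 1 of 2 with that minimum, and DESeq2 gave no p value for Ucp2. Plin2, a coat protein of lipid droplets, was at 139 ± 24.1, 249.6 ± 15.9 and 256 ± 12.5 CPM, Pdk4, which shuts pyruvate dehydrogenase, at 21.7, 56.4 and 17.4 CPM in astrocyte replicates 1 to 3 and 7.95 ± 1.39 and 6.75 ± 0.511 CPM in SB28 cells, and Ucp2 at 38.6 CPM in astrocyte replicate 3 and 2.09 and 1.65 CPM in the other astrocyte libraries, with at most 0.468 CPM in SB28 cells. The log2 fold change of Pdk4, the median of the 3, was -1.98 in mKate2-negative and -2.16 in mKate2-positive cells, and -1.31 and -1.48 without astrocyte replicate 2, the library highest in it.

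Uptake, release and ketone genes were also split between the directions, in lists of 4 to 6 tested genes, beside 29.3% of all genes higher and 33.8% lower in mKate2-negative cells and 28.0% and 32.1% in mKate2-positive cells. Of 4 uptake and binding genes, 1 was higher and 2 lower in each comparison, with Slc27a1 at 211 ± 28.2 CPM in astrocytes and 54.7 ± 7.37 and 55.6 ± 5.08 CPM in SB28 cells, Fabp7, the brain fatty acid binding protein, at 15.6 ± 2.78 CPM in astrocytes and at most 0.369 CPM in SB28 cells, and Slc27a4 at 38.7 ± 4.49, 54.0 ± 6.05 and 57.9 ± 7.55 CPM. Fabp5 did not pass and was at 39.4 CPM in astrocyte replicate 3 and at most 7.03 CPM in the other astrocyte libraries, and without that replicate 2 uptake genes were higher in each comparison. With at least 10 counts required in every library, which left out Fabp7, 1 of 3 uptake genes was higher and 1 lower. The call on Slc27a4 in mKate2-negative cells ended without astrocyte replicate 2 or mKate2-negative replicate 2 or 3. Of 6 acyl-CoA thioesterases, which take coenzyme A off again, 2 were higher (Acot7 and Acot9) and 2 lower (Acot1 and Acot2) in each comparison, shares near those of all genes, and Acot1 had 85.9 ± 37.0 CPM in astrocytes and about 1 CPM in SB28 cells. Acot1 and Acot2 are close copies, so the split of reads between them is uncertain. Of 4 ketone body genes, 1 was higher (Oxct1, which starts the use of ketone bodies, at 262 ± 18.4, 326 ± 32.0 and 318 ± 31.9 CPM) and 2 lower (Bdh1 and Bdh2). Bdh1 and, in mKate2-negative cells, Bdh2 also passed the filter only through astrocyte libraries, and among genes with at least 10 counts in every library 0 of 2 ketone genes were lower in mKate2-negative and 1 of 3 in mKate2-positive cells. In both comparisons the call on Oxct1 ended with upper-quartile normalization, with that minimum, with a block on replicate number and without astrocyte replicate 1 or 2. It also ended without mKate2-negative replicate 1 or 2, and in mKate2-positive cells without astrocyte replicate 3 or mKate2-positive replicate 1 or 3. In mKate2-positive cells, 1 ketone gene was lower without any 1 of the last 3 libraries. Between mKate2-positive and mKate2-negative cells, 0 of 59 listed genes passed.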

How the data were processed

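The authors deposited counts of reads per gene for 9 libraries. Per the submitters' processing notes, adapters were trimmed (Trimmomatic 0.36), reads were mapped to GRCm38 (STAR 2.5.2b) and reads assigned to genes were counted (featureCounts of Subread 1.5.2), with no normalization. The annotation release and the strand setting are not given in the sources used here. Names, positions and exonic lengths came from GENCODE M21, in which 49056 of 49315 IDs have a name. Conditions were compared on these counts with edgeR 4.0.16 (R 4.3.3; quasi-likelihood test, TMM), using the 6 libraries of each comparison and genes above 1 CPM in at least 2 of them, with Benjamini-Hochberg adjustment over all genes tested. The SE is the size of the log2 fold change divided by the square root of F. DESeq2 1.42.0 and the other alternatives are given in the closing section. The replicates of a group are separate co-cultures shared between the groups per the study's methods. P values set a difference between groups against the spread among 3 such libraries in each. The main test treated the groups as independent and took no account of shared cultures.

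The members and gene lists were chosen with earlier results of these data known, so no list count is independent support. Every member is named. Of the lists, genes were named that passed in a comparison and were among the 3 smallest P values of their list there, or whose list had at most 3 genes tested. Some genes of the lists are not reported here by name. The test was run on simulated counts in which 200 genes changed by 1 (log2), and it found 188 of these with 10 false calls among 12989 genes for mKate2-negative cells against astrocytes, 192 with 11 among 12935 for mKate2-positive cells against astrocytes, and 194 with 9 among 11749 for mKate2-positive against mKate2-negative cells. The simulation gave every gene the same dispersion and, outside the 200 changed genes, the same mean in both groups. Real spread differed between genes and libraries, so these figures check the method and not its power or error rate on these data. The members had at least 334 counts in every library. Whether depth or replicate spread limited precision was not tested.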

Additional observations from a re-analysis of the deposited data

How the results depend on the processing

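The alternatives were DESeq2, upper-quartile and relative log expression normalization, testing without the low-count filter, requiring 10 counts in each library, 1 fit over all 9 libraries, the replicate block, removal of a trend with exonic length (loess, span 0.3) and omission of each library in turn. The count of lower members ranged from 5 to 8 for mKate2-negative cells and from 4 to 7 for mKate2-positive cells against astrocytes, with 0 higher under each alternative run. Cpt1a, Cpt1c, Acadvl and Acaa2 passed in both comparisons under each of them. Upper-quartile normalization moved the median log2 fold change of all genes to -0.12 in both comparisons and gave 8 and 7 lower members, and without the filter that median was -0.21 and -0.19, with 5 and 4 lower members. With the replicate block, 5 and 4 members were lower, and Acadl (log2 fold change -0.31, adjusted p = 0.0595) and Hadha (-0.32, 0.0633) in mKate2-negative and Acadm (-0.42, 0.0501) in mKate2-positive cells no longer passed. The block also ended the call on Oxct1 in both comparisons, leaving 0 ketone genes higher, with 2 lower in mKate2-negative and 1 in mKate2-positive cells, and left 1 lower gene of malonyl-CoA control in each. In mKate2-positive cells it left 2 lower genes of the carnitine system outside the 10 and 9 lower peroxisomal genes. In mKate2-negative cells, 3 of the other mitochondrial oxidation enzymes were higher and 6 lower under it, and 4 regulators were higher. The sources do not tie a number to a co-culture, and the numbers were not taken to pair the libraries, since same-numbered libraries deviated from their group means with r of -0.21 to 0.33, and not every pair was above 0.1. With the length trend removed, Acadl and Hadha did not pass in mKate2-negative cells (adjusted p = 0.0693 and 0.0903). Direction changed only for members that did not pass. Leaving out 1 library, the log2 fold change of Cpt2 ranged from -0.24 to 0.027 in mKate2-negative and from -0.19 to 0.076 in mKate2-positive cells against astrocytes. Between mKate2-positive and mKate2-negative cells it ranged from -0.12 to 0.0039 for Cpt1a, from -0.035 to 0.12 for Acadvl, from -0.056 to 0.11 for Acadl, from -0.082 to 0.079 for Acadm and from -0.011 to 0.0069 for Etfdh. There, upper-quartile normalization gave -0.0052 for Etfdh, and the removed length trend gave 0.022 for Cpt1a, -0.014 for Cpt2, -0.033 for Acadl and 0.012 for Hadhb. The causes were not tested. Peroxisomal genes had 8 to 11 lower and 0 higher, and acyl-CoA synthetases 4 to 5 higher and 0 lower, over all alternatives in both comparisons with astrocytes.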

Other observations

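Of the 75 listed genes, 10 did not pass the filter on low counts in the comparisons with astrocytes. Among them, Ppara, the fatty acid receptor best known from liver, was at 0.550 to 1.10 CPM in astrocytes and 0.552 to 0.972 CPM in SB28 cells. Cpt1b, the muscle form of the outer membrane enzyme, reached at most 0.313 CPM in any library. Cd36, a fatty acid transporter, was at 4.67 CPM in astrocyte replicate 3 and at most 0.0818 CPM in the other astrocyte libraries.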
